A study of Mus musculus with 7 samples.

Results

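Among the chromatin regions detected by ATAC-seq in 7 libraries of mouse B-cell progenitors, 1025 of 145247 had a peak in both Rescue proB and Rescue preB cells and none in any WT library or in Erg KO pre-proB cells. ATAC-seq inserts a transposase into accessible DNA and sequences the released fragments, and a peak is a stretch with more fragments than the genome-wide background. Overlapping peaks of the 7 lists were merged by at least 1 bp into union regions, and the 1025 were selected on the presence and absence of called peaks in 6 of the libraries, so that pattern is a description and not a finding. They made up 0.706% of all union regions and are called the Rescue proB-preB regions here. Rescue pre-proB, the seventh library, was not used to choose them. Of the 1025, 109 (10.6%) had a peak there too, against 69.8% of all union regions. The rule barred peaks in WT pre-proB and Erg KO pre-proB, so all union regions are not a matched reference. Of the 8138 regions in both WT and both Rescue proB and preB lists and in neither of those, 7.31% had one. Absence means that no peak was called, not that the chromatin was closed.

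All cells were sorted from the bone marrow of adult mice and each group was 1 library, which leaves no replicate check and allows no test between groups. WT cells were Ergfl/fl without Cre and gave 3 libraries, 1 each of pre-proB, proB and preB cells. Erg KO cells were Rag1CreT/+;Ergdelta/delta pre-proB cells, in which Cre is made in lymphoid cells from the common lymphoid progenitor onwards. Rescue cells were Rag1CreT/+;Ergdelta/delta;IgHVH10tar, that is, the same deletion with a knocked-in, already rearranged heavy chain allele, taken at the same stages as WT. No WT library carried Cre or IgHVH10tar, so effects of the Erg deletion, of Cre and of the rearranged allele cannot be told apart, and the proB and preB stages of Erg KO are not among the libraries. Stages followed the sample titles. The source name of each Rescue library disagreed with its title: the library titled pre-proB was named proB there, the one titled proB was named preB, and the one titled preB was named pre-proB.

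B-cell development from the pre-proB stage depends on Ebf1, Pax5 and E2A, transcription factors that open and bind enhancers of B-lineage genes, and on the rearrangement of the immunoglobulin heavy chain locus Igh before that of the light chain locus Igk. A productive heavy chain forms the pre-B cell receptor with the surrogate light chain, and signals from it and from the IL-7 receptor set proliferation and light chain recombination. Erg is an ETS family factor, whose members bind GGAA-containing sites. The comparison asks where peaks were called in Rescue cells past the pre-proB stage and neither in WT cells nor in Erg KO pre-proB cells.

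The sequences of the 6 strongest Rescue proB-preB regions outside UTRs are shown first, since the called pattern is clearest there. Each is the 200 bp window around the Rescue proB summit on the plus strand of GRCm38, read from the RefSeq assembly, with matches to the EBF1, ETS, PU.1, ETS-IRF, IRF, RUNX and E2A letters in capitals.
Region nearest to Samd9l (chr6:3166173-3166372): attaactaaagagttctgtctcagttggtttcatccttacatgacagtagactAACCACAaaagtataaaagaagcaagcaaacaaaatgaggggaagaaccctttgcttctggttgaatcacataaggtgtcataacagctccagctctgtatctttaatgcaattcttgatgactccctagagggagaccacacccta
Region nearest to Trpa1 (chr1:15018310-15018509): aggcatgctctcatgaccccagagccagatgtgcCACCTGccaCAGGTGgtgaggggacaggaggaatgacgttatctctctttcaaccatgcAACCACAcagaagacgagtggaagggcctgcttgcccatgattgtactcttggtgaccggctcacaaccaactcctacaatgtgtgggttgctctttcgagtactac
Region nearest to Ndufa4 (chr6:10690592-10690791): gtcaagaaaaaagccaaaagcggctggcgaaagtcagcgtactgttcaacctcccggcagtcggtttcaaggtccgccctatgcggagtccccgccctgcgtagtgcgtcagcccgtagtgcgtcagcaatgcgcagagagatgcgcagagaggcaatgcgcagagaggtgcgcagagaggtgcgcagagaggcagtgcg
Region in Igh, near Ighv3-3 (chr12:114188925-114189124): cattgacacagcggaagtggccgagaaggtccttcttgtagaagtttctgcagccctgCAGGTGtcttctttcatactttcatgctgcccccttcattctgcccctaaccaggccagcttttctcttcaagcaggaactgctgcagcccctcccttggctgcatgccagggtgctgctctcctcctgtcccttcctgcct
Region in an intron of Fhit (chr14:9998614-9998813): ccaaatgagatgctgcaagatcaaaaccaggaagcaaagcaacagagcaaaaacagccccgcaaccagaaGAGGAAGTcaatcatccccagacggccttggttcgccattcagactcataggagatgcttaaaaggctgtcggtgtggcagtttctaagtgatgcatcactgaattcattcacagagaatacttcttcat
Region nearest to Ces5a (chr8:93569659-93569858): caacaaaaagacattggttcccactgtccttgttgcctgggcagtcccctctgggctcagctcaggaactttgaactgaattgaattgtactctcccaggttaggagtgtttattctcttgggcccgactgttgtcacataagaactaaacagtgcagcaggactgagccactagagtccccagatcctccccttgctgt
The windows nearest to Samd9l and Trpa1 held a RUNX match, those nearest to Trpa1 and in Igh an E2A match, and that in Fhit a PU.1 match. No window of the 6 held an EBF1 match. The window nearest to Ndufa4 was repeat-masked over 100% of its bases, against 0 to 13.5% in the other 5 windows.

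The strongest of all lay between genes, 233299 bp from the start of Samd9l, an interferon-inducible gene (chr6:3165881-3166850). The summit pileup, the number of fragments over the highest base, was 87 for Rescue proB against 93 for Rescue preB, which were 19.6-fold and 19.4-fold over the genome-wide background of each library, and none of the other 5 libraries had a peak. The nearest WT or Erg KO peak was 15662 bp away. The next, at the promoter of Myo18b, a myosin heavy chain gene of striated muscle (chr5:112896138-112897162), had pileups of 65 and 86, and the one at the start of the small nucleolar RNA Gm26345, nearest to the sensory cation channel gene Trpa1, had 63 and 59. The masked region nearest to Ndufa4 had pileups of 56 and 88 and lay 1216701 bp from that gene. A region in an intron of Fhit, a diadenosine triphosphate hydrolase and tumour suppressor gene, had pileups of 50 and 74. The regions were ranked by the lower −log10 q of the Rescue pair, so being high in both Rescue libraries follows from the ranking. Most of these strongest regions lay far from any coding promoter.

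Among the rest of the 15 strongest, those nearest to Ces5a, a carboxylesterase gene, and Ly86, which encodes a partner of the Toll-like receptor homologue RP105 on B cells, had pileups of 48 and 53 and of 47 and 76. A region in an intron of Dnm3, a dynamin gene, had its higher pileup in Rescue proB, at 82 against 47. Regions in introns of Foxn4, a forkhead factor gene, and of Dnah7c, an axonemal dynein gene, had pileups of 44 and 48 and of 47 and 44. Here, however, a WT or Erg KO peak lay only 328 and 292 bp from the edge of the region. Dnah7c belongs to a set of closely similar genes, so the placing of reads there is uncertain. The regions nearest to Nrp1, Cdca2 and Sowahb had pileups of 42 and 60, 41 and 46, and 41 and 68. The remaining 2 of the 15 lay in Igh and are described with that locus.

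These regions were exceptional in strength. Over all 1025, the median pileup was 17 for Rescue proB and 20 for Rescue preB, and the median fold 4.01 and 4.33. The median −log10 q was 5.63 and 7.15, against 33.2 and 39.2 in the 68803 regions that had both Rescue peaks and at least 1 WT or Erg KO peak. The lower of the 2 −log10 q values was at least 10 for 123 regions (12%), at least 20 for 29, and under 5 for 590. The fold was higher in Rescue preB at 599 regions and in Rescue proB at 426, and across regions the folds had a Spearman rho of 0.398. Both folds came from the regions chosen for having both peaks. The summits of the Rescue pair lay a median of 48 bp apart, and within 100 bp at 806 regions (78.6%).

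**Figure D1:**
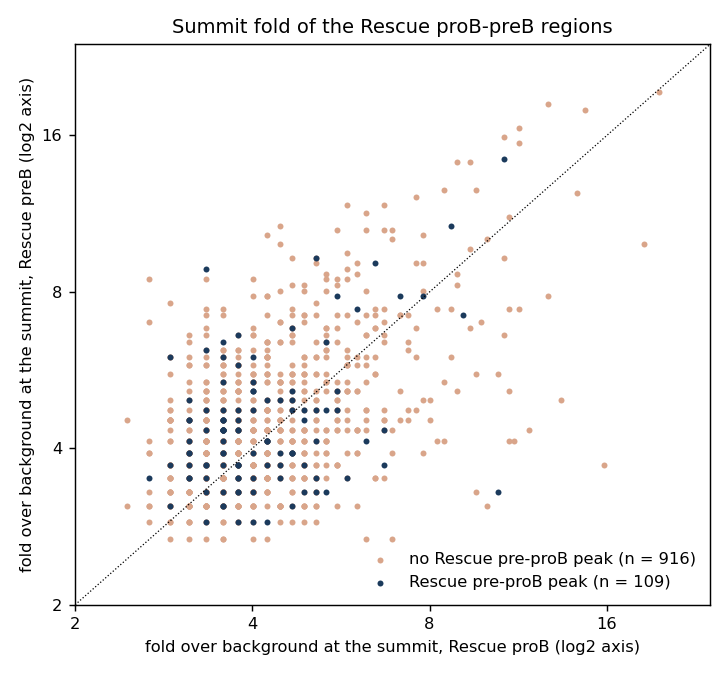
Summit fold over the genome-wide background of the 1025 Rescue proB-preB regions in Rescue proB (horizontal) and Rescue preB (vertical), both on log2 axes, with 1 point per region, the 109 with a Rescue pre-proB peak in dark blue and equal folds on the dotted line. Most points lie near the medians of 4.01 and 4.33, and the region nearest to Samd9l is at the upper right, at 19.6 and 19.4.

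The depth of the lists bears on how absence is read. Background pileups were between 3.49 in Rescue proB and 4.60 in Rescue pre-proB, and the lists held 76465 peaks in WT preB to 105649 in Rescue pre-proB. The lowest called fold of the 4 libraries without a peak reached 2.63, in WT preB. The lower of the 2 Rescue folds was at least as high at 1023 of 1025 regions, at least 1.5 times as high at 367 and at least 2 times as high at 111. Just inside the rule, 2 regions had a −log10 q of 1.34 in a Rescue library. Just outside it, 2576 regions with both Rescue peaks were barred by a peak in only 1 of the 4 libraries, which was WT proB at 1228, WT preB at 1050, Erg KO pre-proB at 253 and WT pre-proB at 45, with a median −log10 q of 8.47 there and a lowest value of 1.999. A WT or Erg KO peak lay within 1000 bp of 324 members (31.6%), and none within 10000 bp of 194.

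Membership depended on the length of the lists. With every list cut to its 76465 strongest peaks the rule gave 844 regions, of which 405 overlapped one of the 1025. With 38232 peaks per list it gave 425, of which 11 did. With Rescue and WT exchanged, that is, peaks in WT proB and preB and none in Rescue or Erg KO libraries, the rule gave 1457 mirror regions. The mirror counts were 2056 at the equal length and 908 at the shorter one, and 307 against 123 where the lower −log10 q was at least 10. The members were 1.47% of the 69828 regions with both Rescue peaks, and the mirror regions 2.27% of the 64233 with both WT proB and WT preB peaks. How far read depth entered these counts was not tested.

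The defining promoters of the B lineage, including Cd79a, Ebf1, Pax5 and Rag1, carried a peak for 10 of 10 genes in Rescue proB, Rescue preB and all 3 WT libraries, for 7 in Rescue pre-proB and for 6 in Erg KO pre-proB. T-cell promoters carried a peak for 5 of 10 genes in both Rescue and WT proB and for 3 of 10 in both Rescue and WT preB. The counts for NK and innate lymphoid genes were 7 in Rescue proB against 6 in WT proB and 4 against 5 in preB, and those for myeloid genes were 7 and 7, and 6 and 6. At the pre-proB stage Rescue and WT differed by more, with 7 against 4 T-cell promoters and 9 against 7 myeloid promoters, and 7 against 7 for NK and innate lymphoid genes. A promoter peak does not measure expression. Their part in the presence of the members was not tested.

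The library left out of the rule was Rescue pre-proB. Rescue pre-proB had a peak at 109 of 1025 (10.6%, Wilson 95% interval 8.89 to 12.7%), against 69.8% of all union regions and 82.1% of the regions with both Rescue peaks and a WT or Erg KO peak. The rule had itself barred regions with a peak in WT pre-proB or Erg KO pre-proB. The closest reference is therefore the 8138 regions with peaks in all 4 proB and preB libraries and in neither of those. Of these, 7.31% (6.77 to 7.90%) had a Rescue pre-proB peak. The share in the Rescue proB-preB regions was higher, and the intervals did not overlap. In the mirror regions 13.9% (12.2 to 15.7%) had a WT pre-proB peak. All intervals here cover counting error only. With lists of equal length the share was 6.16% (4.73 to 7.99%) at the 844 regions and 4.49% (4.08 to 4.92%) at the 9363 reference regions chosen the same way, and these intervals overlapped. Where present, the Rescue pre-proB peak had a median pileup of 19, a median fold of 3.57 and a median −log10 q of 5.29. The highest value was at the promoter of Srp54b, a signal recognition particle gene, whose −log10 q was 59.5 for Rescue pre-proB, against 24.5 for Rescue proB and 36.95 for Rescue preB, and which is named because of these values, outside the rule for named regions. Srp54b has near-identical copies, and reads may be split among them.

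By position, 477 of the regions (46.5%, 43.5 to 49.6%) lay in introns, 435 (42.4%, 39.4 to 45.5%) between genes, 88 (8.59%, 7.02 to 10.5%) at promoters and 25 (2.44%, 1.66 to 3.58%) in exons. A promoter here means overlap with 1000 bp on either side of an annotated start site. Of the 88, 49 were at a coding start and 39 at a non-coding start only. Promoters held 16.3% of all other union regions, but 7.28% of the mirror regions and 9.05% of the 7543 shared proB-preB regions, which had peaks in both WT and both Rescue proB and preB libraries and in no pre-proB library. The low promoter share was therefore also seen in sets chosen by other stage-restricted patterns. The intergenic share was 35.1% (32.7 to 37.6%) in the mirror and 38.4% (37.3 to 39.5%) in the shared regions. Its interval in the Rescue proB-preB regions did not overlap with that of the mirror regions, but narrowly overlapped with that of the shared regions. The median distance to the nearest coding start was 40139 bp, against 29971 bp in the mirror, 29704 bp in the shared and 22058 bp in all other regions.

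**Figure D2:**
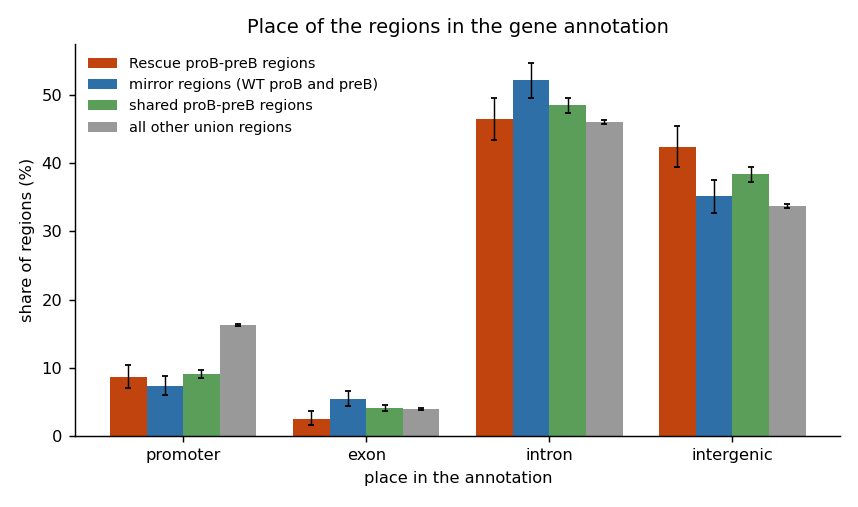
Share of regions in % (vertical) at promoters, in exons, in introns and between genes for the Rescue proB-preB regions (n = 1025), the mirror regions (n = 1457), the shared proB-preB regions (n = 7543) and all other union regions (n = 144222), with bars at the share and lines for Wilson 95% intervals. Promoters hold 8.59% of the Rescue proB-preB regions and 16.3% of all other regions, and intergenic sites hold 42.4% and 33.7%.

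Motif letters around the summits were not used to choose the regions. Each motif was searched on both strands in the 200 bp around a summit. For shares over whole sets, this was the Rescue proB summit for the members and the WT proB summit for the mirror. For the shared and all other regions it was the summit of the peak with the highest −log10 q in any library. The windows were thus not chosen alike in all sets. The EBF1 letters TCCCNNGGG were found at 86 of the 1025 regions (8.39%, 6.84 to 10.2%), against 5.85% of all other union regions. The share was 16.1% (14.3 to 18.03%) in the mirror regions and 17.0% (16.2 to 17.9%) in the shared proB-preB regions. Their intervals did not overlap with that of the Rescue proB-preB regions. The reversed, not complemented letters, which have the same base composition, were found at 2.05% of the Rescue proB-preB regions. Regions that Rescue shared with WT at the proB and preB stages thus held an EBF1 match at about the same rate as the WT-restricted ones, and the Rescue-restricted ones held it less often.

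Peak strength moved with this share, and the regions differed in it. The strength of a region was taken as the lower −log10 q of its pair of libraries, in 3 classes chosen after the shares had been seen. In the Rescue proB-preB regions the EBF1 share was 6.78% (5.02 to 9.10%) under 5, 8.97% (6.28 to 12.7%) from 5 to 10 and 14.6% (9.46 to 21.9%) at 10 or more. The mirror regions in the same classes had 14.0%, 16.7% and 18.6%, and the shared regions had 11.7%, 14.1% and 19.2%. For the shared regions, the class matches do not add up to the whole-set count. Their class shares and their whole-set share are therefore not the same measure. In the lowest class the interval lay below both other sets (11.3 to 17.2% and 9.93 to 13.6%). Among the strongest 123 regions it overlapped with both, so no difference was detectable there. By Rescue pre-proB, 2 of the 109 regions with a peak there held an EBF1 match (1.83%, 0.505 to 6.44%), against 9.17% (7.47 to 11.2%) of the 916 without.

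The LEF letters CTTTGAT, read by the HMG-box factors Lef1 and Tcf7, were rarer than in the mirror regions. They were found at 1.85% (1.19 to 2.88%) of the Rescue proB-preB regions, 2.73% of the shared and 2.85% of all other regions, but at 7.62% (6.36 to 9.09%) of the mirror regions. The reversed letters gave 4% in the Rescue proB-preB and 2.68% in the mirror regions. By strength, the Rescue proB-preB share was 2.54%, 0.962% and 0.813% from the weakest to the strongest class, against 5.09%, 7.50% and 12.4% in the mirror. The intervals of the upper 2 classes did not overlap (0.328 to 2.79% against 5.65 to 9.89%, and 0.144 to 4.46% against 9.15 to 16.5%).

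The octamer letters ATGCAAAT, bound by POU factors such as Oct1 and Oct2, were found at 4.49% (3.38 to 5.93%) of the Rescue proB-preB regions, against 2.02% of all other regions, 3.43% of the mirror and 6.66% (6.11 to 7.24%) of the shared regions. The reversed letters were at 0.195%. The E2A letters CAGCTG or CAGGTG were at 33.3% (30.5 to 36.2%), against 35.5% of all other, 37.7% of the mirror and 36.7% of the shared regions. The KLF letters GGGTGTGG were at 3.902% (2.88 to 5.27%), against 1.99% (1.39 to 2.84%) of the mirror, 3.43% (3.05 to 3.87%) of the shared and 2.54% of all other regions, so the share was like that of the shared regions.

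For the ETS family, to which Erg belongs, the letters CCGGAAGT or CAGGAAGT were found at 4.68% (3.55 to 6.15%) of the Rescue proB-preB regions, against 6.45% (5.30 to 7.83%) of the mirror, 6.92% (6.37 to 7.52%) of the shared and 6.20% of all other regions. The PU.1 letters GAGGAAGT were at 6.15%, 4.94%, 6.12% and 7.21% in the same order, and the composite ETS-IRF letters GGAANNGAA, which can share their GGAA with an ETS or PU.1 match, at 7.12%, 7.76%, 6.68% and 9.74%. The interval for ETS overlapped with that of the mirror and lay below that of the shared regions. RUNX letters (TGTGGTT) were at 7.90% of the Rescue proB-preB, 7.001% of the mirror and 7.72% of the shared regions, against 10.8% of all other regions. CTCF letters (AGGNGGCGC) were at 0.878% (0.463 to 1.66%), 1.51% and 1.10%, against 2.04%. The low RUNX and CTCF shares were thus not particular to the Rescue proB-preB regions. IRF, FOXO, NF-kB, MEF2, AP-1 and NFY letters were searched too. The IRF letters GAAANNGAA were as frequent as their reversal in the Rescue proB-preB regions, at 8.20% each. A match describes letters in a window and not a bound site.

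**Figure D3:**
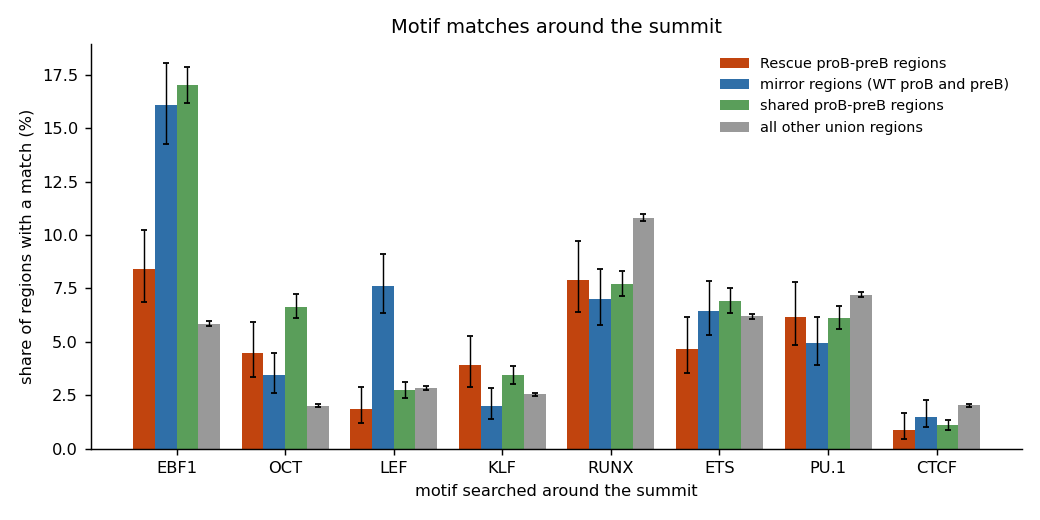
Share of regions in % (vertical) with a match to 8 of the motifs in the 200 bp around the summit, in the 4 sets, with bars at the share and lines for Wilson 95% intervals. EBF1 letters are at 8.39% of the Rescue proB-preB regions, 16.1% of the mirror and 17.0% of the shared regions, and LEF letters at 1.85%, 7.62% and 2.73%.

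**Figure D4:**
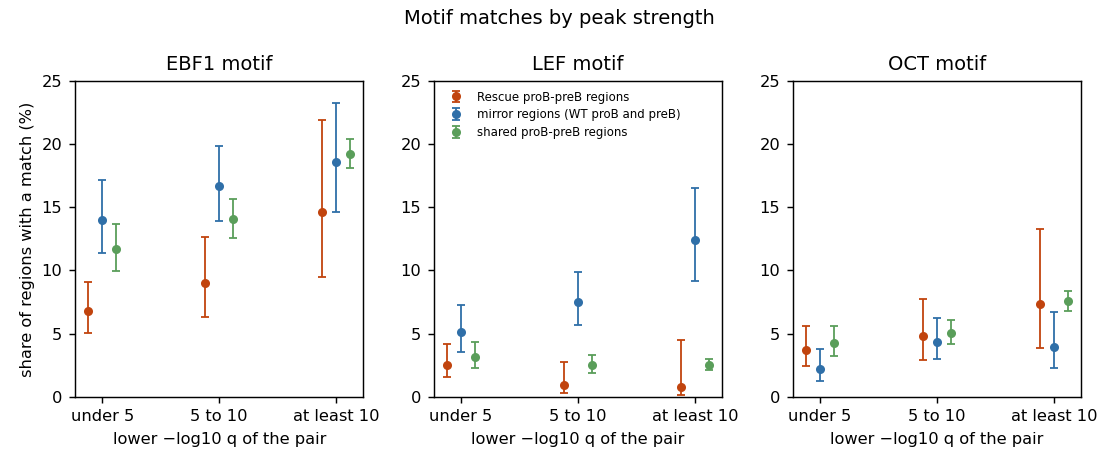
Share of regions in % (vertical) with EBF1, LEF or OCT (octamer) letters by class of the lower −log10 q of the pair that defines each set (horizontal; the Rescue pair for the Rescue proB-preB and shared regions, the WT pair for the mirror regions), with points at the share and lines for Wilson 95% intervals. The EBF1 share of the Rescue proB-preB regions goes from 6.78% to 14.6%, and the LEF share of the mirror regions from 5.09% to 12.4%. Class shares of the shared regions are not the same measure as their whole-set shares.

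Igh and Igk held a larger share of these regions than the genome-wide 0.706%. In Igh, which extended over chr12:113254830-116010093 and encodes the heavy chain, 11 of 319 union regions belonged to the Rescue proB-preB set (3.45%, 1.94 to 6.07%) and 1 to the mirror. Another 21 were shared proB-preB regions. All 11 lay among V segments, from near Ighv9-1 to near Ighv8-8, with 8 nearest to a V gene and 3 to a V pseudogene. The region near Ighv3-3, shown above with its E2A match, had pileups of 50 for Rescue proB and 79 for Rescue preB and lay 7414 bp from the segment. The region 96 bp from Ighv3-8 (chr12:114322402-114323470) had 47 and 69, and 26 in Rescue pre-proB. The other 9 had a −log10 q of 2.41 to 9.46 for Rescue proB and 3.14 to 21.1 for Rescue preB. The fold was higher in Rescue preB at 7 of the 11. Total Igh peaks were 220 and 243 in Rescue proB and preB, against 208 and 147 in WT, so the lists differed across the locus as a whole. V segments belong to families of similar sequence and Igh rearranges in these cells. Rescue cells, unlike WT cells, also carried the rearranged IgHVH10tar allele at Igh itself. The part of any of these in the peak calls was not tested.

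**Figure D5:**
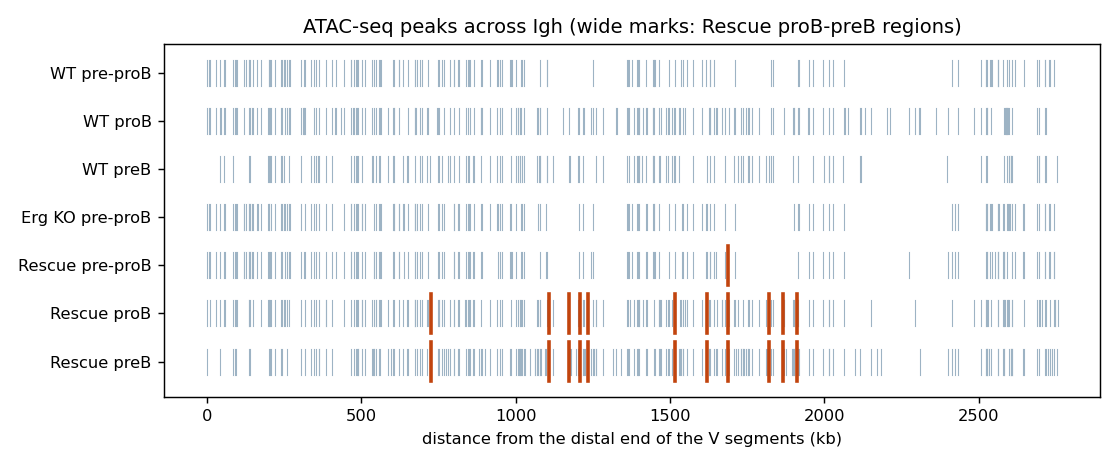
Peaks across Igh in the 7 libraries (rows), placed by the distance in kb of the summit from the distal end of the V segments (horizontal), with the peaks of the Rescue proB-preB regions as wide orange marks. The 11 regions lie between 726.3 and 1911 kb from that end, and 1 of them has a peak in Rescue pre-proB.

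In Igk, which encodes the kappa light chain, 9 of 295 union regions belonged to the set (3.05%, 1.61 to 5.70%) and 3 to the mirror, again all among V segments. Igk was also dense in shared proB-preB regions, with 106 of its 295 union regions, against 7543 of 145247 genome-wide. A larger share than genome-wide was thus not particular to the Rescue proB-preB set in Igk. With lists of equal length Igk held 5 regions of the set. Peaks at 2 of the 9, at Igkv4-72 and Igkv4-69, overlapped the segment. The strongest were a pair 949 bp from the pseudogenes Igkv2-95-1 and Igkv2-93-1, with folds of 8.69 and 7.43 at the first and 7.35 and 7.22 at the second in Rescue proB and preB. The pair is shown because both windows held the EBF1 and the E2A letters (in capitals), and it was picked after its values were seen. Their windows started 38593 bp apart and ran on opposite strands, with 184 of 196 aligned bases identical (93.9%).
Region near Igkv2-95-1 (chr6:68672732-68672931, plus strand): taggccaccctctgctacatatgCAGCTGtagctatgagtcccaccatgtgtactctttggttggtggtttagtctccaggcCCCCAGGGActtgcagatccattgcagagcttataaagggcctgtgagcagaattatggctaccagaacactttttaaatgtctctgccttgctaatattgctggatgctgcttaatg
Region near Igkv2-93-1 (chr6:68711325-68711524, minus strand): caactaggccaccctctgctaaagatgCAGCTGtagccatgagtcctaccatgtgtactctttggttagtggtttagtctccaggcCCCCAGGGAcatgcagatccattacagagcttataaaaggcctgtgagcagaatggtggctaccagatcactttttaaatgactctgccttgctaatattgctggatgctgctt
Similar copies can share reads, so the pair may not be 2 independent observations. The Tcra/Tcrd locus held 3 of 114 (2.63%, 0.899 to 7.45%), so its interval also lay above the genome-wide 0.706%. Igl, Tcrb and Tcrg held 0 of 26, 0 of 67 and 0 of 23, which allows up to 12.9%, 5.42% and 14.3% by the Wilson upper bound.

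The regions were spread over many genes. The 1025 had 818 different nearest coding genes, 689 of them with a single region, and no stretch with gaps under 100 kb held 6 or more. Adam6a and Rpia were nearest to 7 and 6 regions, which lay mainly in or beside Igh and Igk. Away from these loci, 4 genes were nearest to at least 5. Grin3a, a subunit gene of NMDA-type glutamate receptors, had 6 of its 12 union regions in the set and 0 in the mirror. These lay between 315571 and 615569 bp from its start, with pileups of 12 to 26 for Rescue proB and 17 to 27 for Rescue preB. Of these, 3 were within chr4:50160935-50168743, with windows repeat-masked over 0.5%, 83.5% and 100% of their bases. Another lay 255 bp from a WT or Erg KO peak. No Grin3a region had a Rescue pre-proB peak. Fhit had 5 of 76, all in its introns. Apart from the strong region described above, their pileups were 12 to 15 and 19 to 22. Nrp1, which encodes the coreceptor neuropilin 1, had 5 of 85, with pileups of 42 and 60 at the strongest, 400528 bp from its start, and of 14 and 24, and 15 and 22, at 2 in its introns. Lrrn3, a leucine-rich repeat neuronal gene, had 5 of 83, with pileups of 12 to 27 for Rescue proB and 18 to 29 for Rescue preB.

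Regions nearest to known B-cell genes were counted by gene list. For a list of 18 B-lineage regulators, 7 of 874 union regions were in the set (0.801%, 0.388 to 1.64%), close to the 0.706% of all regions, and 10 were mirror regions (1.14%, against 1.003% of all regions). They were nearest to Foxo1, Bach2, Pax5, Ikzf3, Mef2c (2 regions) and Runx1. The Pax5 region, in an intron 74611 bp from the start (chr4:44635663-44635953), had pileups of 14 and 14 and an E2A match. Runx1, a core factor of early haematopoiesis, had pileups of 21 and 28, and Foxo1, which drives Rag expression, of 24 and 22. The Bach2 region, near a repressor gene of B-cell fate, had 22 and 15. The region at the Ikzf3 promoter, which encodes the zinc finger factor Aiolos, had 15 and 17 and lay 121 bp from a WT or Erg KO peak. Both Mef2c regions, near a MADS-box factor gene active downstream of the pre-B cell receptor, had pileups of at most 19. These were weak peaks, all under a fold of 6.

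In the IL-7 receptor pathway list, 4 of 345 were in the set (1.16%, 0.452 to 2.94%) and 2 in the mirror. They were an intronic region of Bcl2, the anti-apoptotic gene, with pileups of 19 and 16, one nearest to the cyclin gene Ccnd3 with 14 and 20, and 2 distal regions whose nearest start was the growth regulator Myc, with 23 and 19, and 13 and 15. The Bcl2 region also had a Rescue pre-proB peak, with a −log10 q of 6.61. In pre-B receptor signalling, 1 of 448 was in the set (0.223%, 0.0394 to 1.25%) and 5 in the mirror (1.12%), the single one nearest to the kinase gene Syk with pileups of 17 and 14. In the activation response list it was 1 of 406 (0.246%, 0.0435 to 1.38%) and 8 (1.97%), the single one in an intron by Tnfaip3, an inhibitor of NF-kB signalling, with pileups of 15 and 20. The list of genes of the network that the study described held 4 of 451 (0.887%, 0.345 to 2.26%) and 9 (1.996%), all 4 named above at Bach2, Pax5 and Myc. Since the study drew that list from the same cells, it is not independent evidence. Genes of later B-cell stages, such as Ms4a1 and Cr2, held 0 of 300 (up to 1.26%) and 6. ETS family genes, Erg among them, held 0 of 442 (up to 0.862%) and 1. The interval or upper bound of each of the 7 lists included 0.706%, so no list was distinguishable from all regions at these counts.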

How the data were processed

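ATAC-seq was analysed in 7 libraries of sorted mouse bone marrow B-cell progenitors, 1 per group. The submitters' processing notes list CASAVA 1.8.2, Bowtie2, Picard and MACS2. By the methods, reads were aligned to mm10 with Bowtie2 and peaks called with MACS2, and the authors deposited 1 list of peaks per library. Options, other versions and the shift of read ends were not given in those sources. The methods name sonication where the protocol in the labels names Tn5. The score deposited by the authors was not used to compare libraries. The fold deposited by the authors is the ratio between the pileup at the summit and the background, each with a pseudocount of 1. The authors also deposited a −log10 p and a −log10 q for each summit. Every fold was a whole multiple of 1 step per library within 0.02 of a step, which gave pileups and background. Read totals were not used here.

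Peaks were merged into union regions in Python 3.11.15 with numpy 2.4.6 and scipy 1.17.1. Regions were placed by GENCODE M21, and sequence was read from RefSeq GRCm38.p6. The merging and motif steps were tested on simulated data, and the distance and overlap code on a few intervals with known answers. The placing of regions by gene annotation was not tested in this way. Shares have Wilson 95% intervals for counting error. The text names the 15 regions with the highest lower −log10 q, the genes nearest to at least 5 members, stretches of at least 6 members and the members of 7 gene lists; exceptions are stated, and 1 gene that the rule names is not reported here. The members and lists were chosen with earlier results of these data known. The alternatives were list length, q, a 1000 bp margin, promoter and motif windows, leaving out a library and the stages by source name.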

Additional observations from a re-analysis of the deposited data

How the results depend on the processing

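The count of regions moved most with the lists used. It was 425 with lists of 38232 peaks, 123 with both −log10 q at least 10 and 29 with at least 20, 2253 without the condition on WT proB and 2075 without that on WT preB, against 1025. With the Rescue stages read from the source names it was 370, of which 109 were among the 1025. By construction, these are the 109 with a peak in the library titled Rescue pre-proB. The share with a Rescue pre-proB peak was 6.16% at equal list length (4.49% in the reference regions, an alternative chosen after seeing the data) and 8.13% at a −log10 q of at least 10. At that q, 43.1% were in introns and 45.5% between genes, 14.6% held EBF1 letters, and Igh and Igk held 2 and 2. Igk held 5 at equal list length. With no WT or Erg KO peak within 1000 bp, 5.99% were at promoters and 45.5% between genes. A promoter window of 2500 bp gave 17.1%. EBF1 letters were at 11.4% in 400 bp windows and, by a class chosen after seeing the data, at 6.78% of the regions with a −log10 q under 5. By construction, stricter lists hold fewer peaks and wider windows more bases, and other causes were not tested. The other 19 recomputed values stayed within 1.5 times the count or 1 counting interval of the share. No paired analysis was possible because each group has 1 library.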

Other observations

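The regions named here were picked after their values were seen. The first 5 are among the 49 at coding promoters. The promoters of Agbl1, a cytosolic carboxypeptidase gene, and Best3, a bestrophin anion channel gene, had −log10 q values of 17.5 and 19.1, and of 14.7 and 17.2, in Rescue proB and preB. Aatk, a kinase gene described in neurons, had 9.46 and 29.3 and also a Rescue pre-proB peak. Adam12, a metalloprotease gene, had 8.65 and 11.1, and Foxj1, the forkhead factor gene of ciliated cells, 7.86 and 6.43. In the Tcra/Tcrd locus, the starts of the T-cell receptor segments Trav9-2 and Trav9n-4 had 7.86 and 11.1, and 7.10 and 32.5. These segments are similar copies, so the placing of reads there is uncertain.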
